A study of Homo sapiens with 16 samples.

Results

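The 6 genes SULT1E1, CPE, UACA, INAFM2, KIF1A and SLC35F1 were chosen by their measured levels out of the 43388 genes in the expression table, because at Day 30 they differed strongly between medium with 11.1 mM glucose and the same medium with 5 mM glucose. That choice used the Day 30 libraries themselves, so the difference between RPMI/B27 and RPMI_glcM/B27 is given below as a description, without a test. Among the 354 genes that passed an adjusted p of 0.05 in that contrast (2.20% of the 16122 tested), the 6 genes held places 6 (SULT1E1), 35 (KIF1A), 81 (CPE), 109 (UACA), 138 (SLC35F1) and 297 (INAFM2) by the size of the difference. Most of them were therefore not at the top of that contrast.

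The cells were cardiomyocytes differentiated from the established human induced pluripotent stem cell line WTC11, which is labelled wild type, and each of 4 groups held 4 bulk RNA-seq libraries. Day 16 cells in standard RPMI/B27 were the starting point. The other cells were kept from Day 16 to Day 30 in RPMI/B27 (11.1 mM glucose), in RPMI_glcM/B27 (RPMI brought to 5 mM glucose) or in HPLM/B27, where HPLM is a plasma-like medium that also holds 5 mM glucose but differs from RPMI in its amino acids, salts and other metabolites. All groups shared the line, the GiWi differentiation protocol and the B27 supplement. Per the paper the 4 libraries of a group came from independent wells, and it refers to the RNA-seq as a single differentiation. Because the libraries came from a single line as well, SDs and p-values measure the spread between these libraries only. They do not measure the spread between differentiations or lines. Levels are in TPM, a measure of transcript abundance that corrects for gene length and depth. Between 7744784 and 16183695 reads on genes stood behind each library. The mitochondrial rRNA RNR2 alone took 413798 to 483359 TPM and the small nuclear RNA RN7SK 87563 to 138467 TPM, while RNR1, the other mitochondrial rRNA, ran from 49.5 to 29276 TPM. The 9 cardiomyocyte markers checked, TNNT2 and MYH7 among them, were present in all libraries and summed to between 13280 and 17508 TPM.

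The 6 genes do not belong to one pathway. SULT1E1 is the oestrogen sulfotransferase, an enzyme best known from liver and endometrium that adds sulfate to oestrogens and so makes them unable to bind their receptor. CPE, carboxypeptidase E, trims basic residues from prohormones in secretory granules and also acts in sorting them. KIF1A is a kinesin motor that carries dense-core and synaptic vesicle precursors along microtubules, mostly in neurons. SLC35F1 belongs by sequence to the solute carrier family of nucleotide sugar transporters and has no settled substrate. UACA is a coiled-coil protein with ankyrin repeats, described in apoptosome and PAWR biology, and INAFM2 is a small predicted membrane protein with an InaF motif whose function is little known. Glucose is known to act on transcription through the MondoA and ChREBP factors, which bind pairs of E-boxes and whose classic targets are TXNIP and ARRDC4.

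The stretch just before the start of transcription was read for 5 of the 6 genes from RefSeq (GRCh38.p14), where KIF1A has 3 starts and SLC35F1 was not found. The UACA window ends at 70763808, inside the gene span given below, which runs to 70778903. It thus precedes a start within that span, and the stretch before the outermost start of UACA was not searched. The sequences are shown because glucose-responsive promoters are described by their E-boxes, and so that the reader can see which letters the 5 genes carry. Each is given 5′ to 3′ on the gene's own strand and ends at the base before the start. Capitals mark TGACGT, the core of the cyclic AMP response element, or its reverse complement.
SULT1E1, chr4:69860146-69860395, minus strand: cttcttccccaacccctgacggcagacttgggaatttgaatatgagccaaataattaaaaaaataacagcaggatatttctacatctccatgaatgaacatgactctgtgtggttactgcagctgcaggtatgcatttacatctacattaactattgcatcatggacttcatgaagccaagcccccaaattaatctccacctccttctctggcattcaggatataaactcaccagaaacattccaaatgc
CPE, chr4:165378758-165379007, plus strand: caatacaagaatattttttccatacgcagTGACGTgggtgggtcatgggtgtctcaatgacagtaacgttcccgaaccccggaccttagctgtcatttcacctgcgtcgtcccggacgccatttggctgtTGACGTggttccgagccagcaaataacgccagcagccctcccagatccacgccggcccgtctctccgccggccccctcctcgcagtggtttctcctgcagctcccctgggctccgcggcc
UACA, chr15:70763559-70763808, minus strand: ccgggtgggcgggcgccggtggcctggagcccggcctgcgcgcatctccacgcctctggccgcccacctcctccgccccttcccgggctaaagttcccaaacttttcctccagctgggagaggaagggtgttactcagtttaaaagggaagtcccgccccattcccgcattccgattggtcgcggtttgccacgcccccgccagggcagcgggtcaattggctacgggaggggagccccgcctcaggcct
INAFM2, chr15:40323442-40323691, plus strand: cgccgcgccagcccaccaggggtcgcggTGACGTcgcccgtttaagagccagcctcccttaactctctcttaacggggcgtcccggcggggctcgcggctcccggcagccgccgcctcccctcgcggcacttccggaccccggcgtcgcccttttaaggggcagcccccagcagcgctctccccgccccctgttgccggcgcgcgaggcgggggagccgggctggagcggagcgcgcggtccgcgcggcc
KIF1A, chr2:240820220-240820469, minus strand: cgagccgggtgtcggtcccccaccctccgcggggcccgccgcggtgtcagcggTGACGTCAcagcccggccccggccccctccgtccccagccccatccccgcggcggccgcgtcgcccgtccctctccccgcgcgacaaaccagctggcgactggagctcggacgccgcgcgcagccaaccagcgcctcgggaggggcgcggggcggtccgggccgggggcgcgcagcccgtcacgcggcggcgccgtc

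The E-box CACGTG, searched on both strands over the 250 bases, was in none of the 7 windows of these genes and in 6.34% of 35116 promoters of 27305 genes. Nor did any of the 7 windows hold a pair of these boxes with 5 bases between them, present in 0.00285% of promoters, or the looser pair of CANGTG boxes at the same distance, present in 0.0797%. This says only that those letters are not in these windows. The motif TGACGT, which was looked for after the sequences had been read, was in 3 of the 7 windows and in 7.10% of all promoters. CPE held it at 221 and at 120 bases before the start, and INAFM2 at 222. In the KIF1A window printed above the matches at 197 and 195 bases before the start were the 2 strands of a single palindrome, TGACGTCA, a form found in 1.65% of promoters. CPE and INAFM2 were lower and KIF1A higher with 5 mM glucose, so the motif did not go with a direction. GC content of the 7 windows lay between 40.8% in SULT1E1 and 82% in that of KIF1A, with a median of 58% over all promoters.

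**Figure D1:**
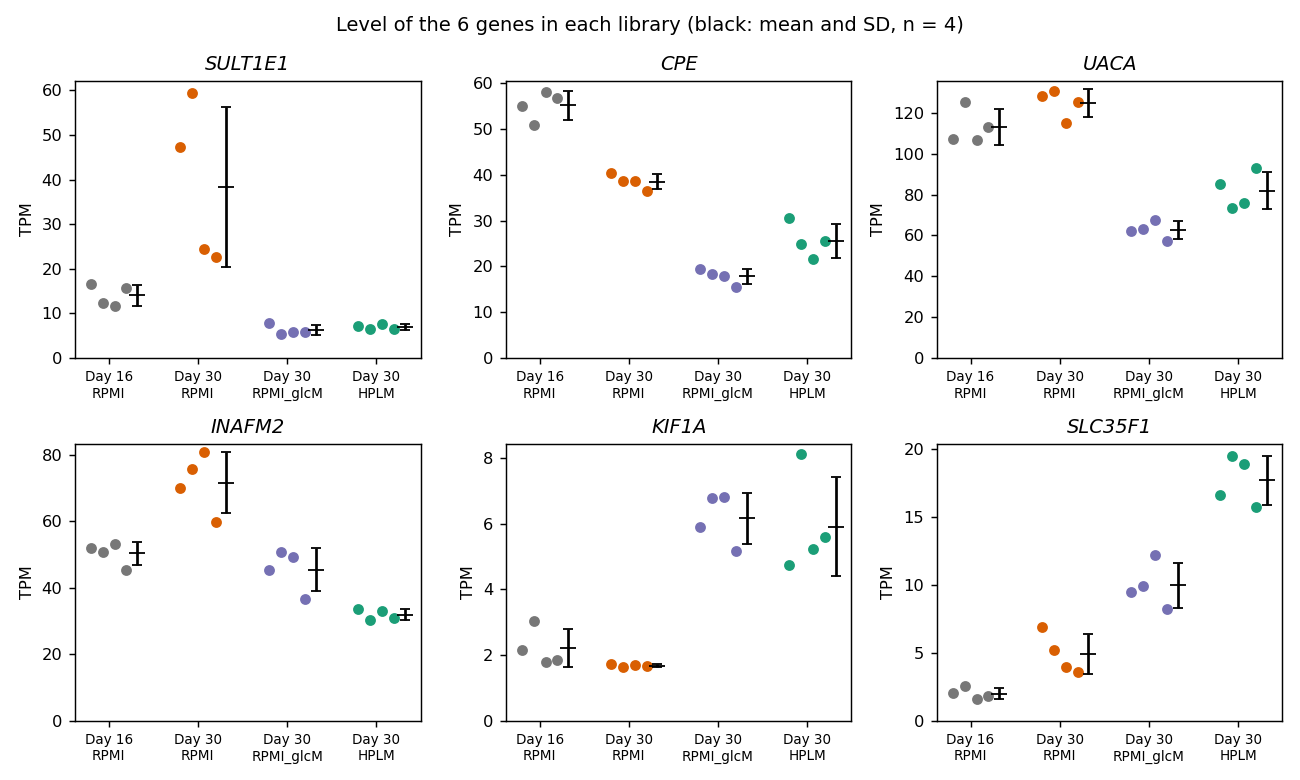
Level in TPM of each of the 6 genes in every library, with one panel per gene, a linear axis from 0, points for the 4 libraries of each group, and the mean with its SD in black. In all 6 panels the 4 RPMI/B27 points at Day 30 are apart from the points of both media with 5 mM glucose, above them for SULT1E1, CPE, UACA and INAFM2 and below them for KIF1A and SLC35F1. Of all genes tested 7.00% were apart for RPMI_glcM/B27, and 7.30% for HPLM/B27, and nothing follows for the 6 genes, since these contrasts share the libraries that chose them.

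SULT1E1 (chr4:69821122-69860145, minus strand) had its highest levels in RPMI/B27 at Day 30. The Day 16 libraries read 16.5, 12.3, 11.7 and 15.6 TPM. At Day 30 the RPMI/B27 libraries read 47.2, 59.4, 24.3 and 22.6 TPM, the RPMI_glcM/B27 libraries 7.77, 5.36, 5.74 and 5.90 TPM, and the HPLM/B27 libraries 7.19, 6.37, 7.62 and 6.51 TPM. The RPMI/B27 libraries were thus all above Day 16, those of both media with 5 mM glucose all below it, and the media with 5 mM glucose overlapped. Group means were 14.0 ± 2.36 TPM at Day 16, 38.4 ± 17.9 in RPMI/B27 at Day 30, 6.19 ± 1.08 in RPMI_glcM/B27 and 6.92 ± 0.588 in HPLM/B27 (SD, n = 4 each). On the scale of log2(TPM + 1) RPMI_glcM/B27 was 2.35 below RPMI/B27 (log2 difference -2.35, SE 0.24) and HPLM/B27 2.20 below it (log2 difference -2.20, SE 0.24). HPLM/B27 and RPMI_glcM/B27 differed by 0.15, with a 95% interval from -0.37 to 0.66. The counts behind these levels were modest, from 33 to 581 reads per library.

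The RPMI/B27 libraries varied more for SULT1E1 than for any other of the 6 genes, with an SD of 46.7% of the mean, and replicates 1 and 2 were well above replicates 3 and 4. Hepatic markers also differed between the Day 30 media. The 12 markers of hepatic endoderm, AFP, ALB and apolipoproteins among them, summed to 473 to 842 TPM at Day 16, 329 to 581 in RPMI/B27, 94.9 to 218 in RPMI_glcM/B27 and 71.2 to 212 in HPLM/B27. In RPMI/B27 the sums were 575 and 581 TPM in replicates 1 and 2, and 380 and 329 TPM in replicates 3 and 4, the same split as for SULT1E1. The mitochondrial rRNA RNR1 split these libraries too, with 1545 and 619 TPM in replicates 1 and 2. It read 14387 and 29276 TPM in replicates 3 and 4, and its part in the SULT1E1 split was not tested. Of the 10 hepatic markers tested 6 were lower in RPMI_glcM/B27 than in RPMI/B27 and none was higher, at an adjusted p under 0.05 in limma. Of all 16122 genes tested 135 were lower there and 219 higher. From Day 16 to RPMI/B27, where SULT1E1 was higher at Day 30, 8 of the 10 hepatic markers fell and 1, ALB, rose. Among all 16122 genes tested 2867 were lower in that comparison and 336 higher. ALB, the albumin gene, had 21.2 TPM at Day 16, 242 in RPMI/B27, then 78.1 in RPMI_glcM/B27 and 49.9 in HPLM/B27. None of the 12 markers was at 0 in all libraries of a group, although the hepatic factors HNF4A and FOXA2 were at or below 2.19 TPM in every group mean. In bulk RNA fewer cells of a type and less RNA per cell cannot be told apart, and the part of the hepatic markers in the SULT1E1 values was not tested.

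**Figure D2:**
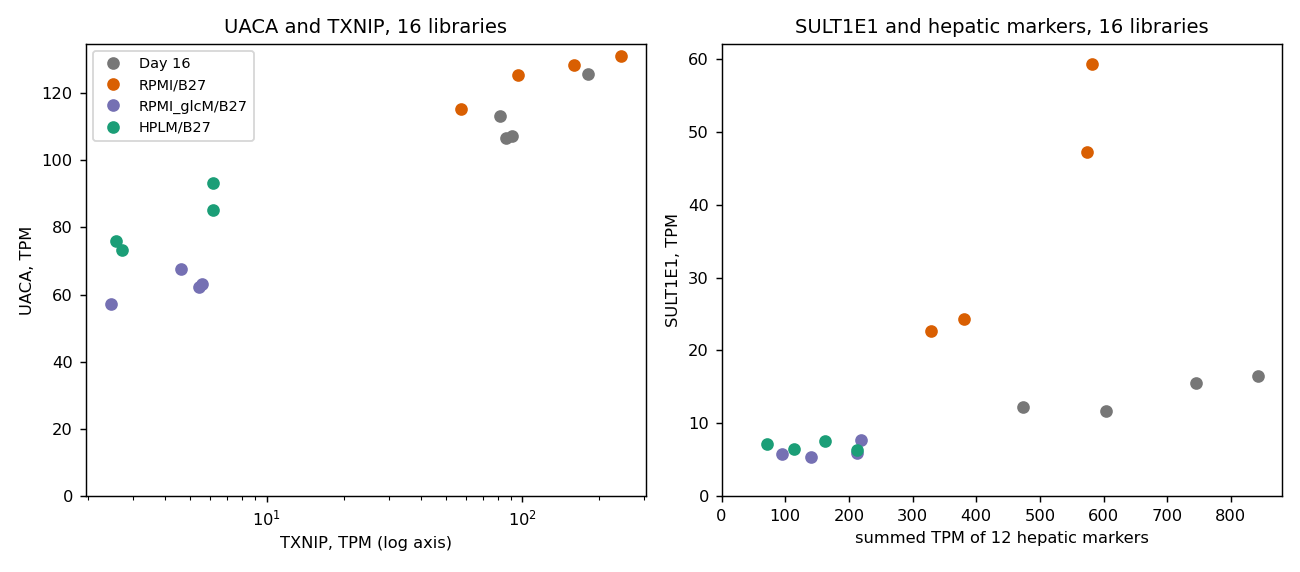
Left, UACA against TXNIP in TPM, with a log axis for TXNIP; right, SULT1E1 in TPM against the summed TPM of 12 hepatic markers; each point is one of the 16 libraries, coloured by group as in the key. UACA was lower in the libraries with less TXNIP, and SULT1E1 stayed between 5.36 and 7.77 TPM in the 8 libraries with 5 mM glucose, whose hepatic sums did not exceed 218 TPM, while at Day 16 it was at most 16.5 TPM with sums up to 842 TPM.

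Other sulfotransferases and the enzymes that make the sulfate donor mostly did not pass between the RPMI media. Of 10 tested, SULT1C4, a sulfotransferase of fetal tissues, was the only one to pass for RPMI_glcM/B27 against RPMI/B27, where 2.20% of all genes passed. SULT1C4 stood at 8.05 TPM at Day 16, 5.12 in RPMI/B27, then 2.00 in RPMI_glcM/B27 and 2.10 in HPLM/B27, and fell by 1.01 on the log2 scale with 5 mM glucose in RPMI (limma, adjusted p = 0.0348). The median log2 difference of the 10 genes was 0.04, against 0.05 over all genes tested. From Day 16 to HPLM/B27 SULT1C4 (log2 change -1.52, adjusted p = 0.000349) and PAPSS1, a synthase of the sulfate donor (-0.85, adjusted p = 0.000756), fell in the limma fit, 2 of 10 where 22.4% of all genes were lower. Of 9 oestrogen receptor and steroid enzyme genes none passed between the RPMI media, and after rescaling to a common median HSD17B12 was lower. HSD17B11, HSD17B12 and HSD17B7, hydroxysteroid dehydrogenases, were lower in HPLM/B27 than at Day 16 (log2 changes -1.13, -0.99 and -0.85). With the common median HSD17B7 no longer passed and HSD17B14 came out higher.

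CPE (chr4:165379008-165498547, plus strand) was highest at Day 16 and lower in each Day 30 medium. Its libraries read 54.9, 50.8, 58.2 and 56.7 TPM at Day 16, 40.4, 38.5, 38.6 and 36.5 in RPMI/B27, 19.4, 18.2, 17.9 and 15.6 in RPMI_glcM/B27, and 30.5, 24.8, 21.6 and 25.5 in HPLM/B27. None of the 4 groups overlapped with another. The order was Day 16 (mean 55.2 ± 3.17 TPM, SD, n = 4), RPMI/B27 (38.5 ± 1.61), HPLM/B27 (25.6 ± 3.70) and RPMI_glcM/B27 (17.8 ± 1.62). RPMI_glcM/B27 differed from RPMI/B27 by a log2 difference of -1.08 and HPLM/B27 by -0.58 (SE 0.11 each). HPLM/B27 was higher than RPMI_glcM/B27 by 0.50 (95% interval 0.26 to 0.73). The median fibroblast marker sums given above had the same order of groups, and their part in the CPE values was not tested.

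Of the 11 other prohormone processing genes tested, SCG2, a granin of secretory granules, was the one that passed between the RPMI media. SCG2 read 1.43 TPM at Day 16, 4.23 in RPMI/B27, then 1.13 in RPMI_glcM/B27 and 1.56 in HPLM/B27, a fall by 1.21 on the log2 scale in RPMI_glcM/B27 (limma, adjusted p = 0.0156). After rescaling to a common median 5 of the 11 were lower, CORIN, FURIN, PAM, PCSK1 and SCG2, where 910 of all 16122 genes were lower. With mitochondrial rRNAs and tRNAs and RN7SK left out of the scale 2 were lower (PAM and SCG2), where 537 of all 16098 genes were lower. The median of the 11 genes was -0.17, against 0.05 over all genes. From Day 16 to HPLM/B27, PCSK1N, an inhibitor of the convertase PCSK1, rose (log2 change 1.09, adjusted p = 0.00364, limma). FURIN (-0.86), CPD, a carboxypeptidase related to CPE (-0.77), PCSK5 (-0.56) and CORIN, the convertase of pro-atrial natriuretic peptide (-0.50), fell over the same interval. CORIN and PCSK5 no longer passed once libraries were rescaled to a common median.

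KIF1A (chr2:240713767-240821403, minus strand) was low in all groups but higher in both media with 5 mM glucose. It read 2.16, 3.05, 1.80 and 1.85 TPM at Day 16 and 1.72, 1.62, 1.69 and 1.65 in RPMI/B27. In RPMI_glcM/B27 it read 5.92, 6.79, 6.81 and 5.18 TPM, and in HPLM/B27 4.74, 8.12, 5.22 and 5.60. All 8 libraries with 5 mM glucose were above all 8 others, and those of RPMI_glcM/B27 and HPLM/B27 overlapped. Means were 2.22 ± 0.581, 1.67 ± 0.0433, 6.17 ± 0.780 and 5.92 ± 1.51 TPM (SD, n = 4 each). Of raw means the ratio to RPMI/B27 was 3.70 in RPMI_glcM/B27 and 3.54 in HPLM/B27. On the log2(TPM + 1) scale, which compresses low levels, the differences were 1.42 and 1.35 (SE 0.17 each), and with a pseudocount of 0.1 they were 1.82 and 1.73. Reads per library ran from 59 to 342. HPLM/B27 minus RPMI_glcM/B27 was -0.07 (95% interval -0.42 to 0.28). The 12 neuron and neuroendocrine markers summed to 20.8 to 33.9 TPM in RPMI/B27, 18.0 to 24.5 in RPMI_glcM/B27 and 18.3 to 22.1 in HPLM/B27, with CHGA at 0 in each of these libraries, so their sum was not higher where KIF1A was higher. GAP43, a growth cone protein and one of the 12, did differ in the same direction as KIF1A, with 1.15 TPM in RPMI/B27, then 3.25 in RPMI_glcM/B27 and 2.95 in HPLM/B27.

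None of 21 other kinesin genes and none of 16 cargo and adaptor genes of KIF1A passed for RPMI_glcM/B27 against RPMI/B27 (limma, adjusted p under 0.05), and their median log2 differences were -0.02 and 0.01. After rescaling to a common median 1 of the 21 (KIFAP3, lower) and 3 of the 16 (PPFIA1 and PPFIA4 higher, TANC2 lower) passed. Among all 16122 genes 1042 were then higher and 910 lower. PPFIA4, a liprin that links KIF1A to its cargo, read 35.6 TPM at Day 16, 45.1 in RPMI/B27, then 63.2 in RPMI_glcM/B27 and 61.0 in HPLM/B27. From Day 16 to HPLM/B27 PPFIA4 was the only one of these 37 genes to rise (log2 change 0.77, limma, adjusted p = 0.00231), while 8 of 21 kinesins and 5 of 16 cargo genes fell (22.4% of all genes were lower here), among them KIF3C (-0.94), KIF7 (-0.80), RAB3B (-1.28) and TANC2 (-1.03). With the common median 4 kinesins were higher and 4 lower, and of the cargo genes 4 were higher and 4 lower. Among all 16122 genes 2155 were higher and 1919 lower on that scale. The balance of directions thus depended on the scaling, for these lists and for all genes.

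SLC35F1 (chr6:117907264-118317671, plus strand) differed between all 4 groups. It read 2.01, 2.52, 1.60 and 1.80 TPM at Day 16, 6.87, 5.16, 3.97 and 3.59 in RPMI/B27, 9.49, 9.90, 12.1 and 8.22 in RPMI_glcM/B27, and 16.6, 19.5, 18.9 and 15.7 in HPLM/B27. No group overlapped with the next in this order. The means were 1.98 ± 0.395, 4.90 ± 1.48, 9.94 ± 1.64 and 17.7 ± 1.80 TPM (SD, n = 4 each), from 30 to 502 reads per library. Compared with RPMI/B27 the log2 difference was 0.91 in RPMI_glcM/B27 and 1.69 in HPLM/B27 (SE 0.17 each). HPLM/B27 was above RPMI_glcM/B27 by 0.78 (95% interval 0.42 to 1.14), the largest gap between the media with 5 mM glucose among the 6 genes. Of the 20 other SLC35 genes tested none passed between the RPMI media, and their median log2 difference was 0.06. After rescaling to a common median SLC35A5 and SLC35E1 were higher and SLC35F6 lower, where 1042 of all 16122 genes were higher and 910 lower. From Day 16 to HPLM/B27 none rose and 4 of 20 fell, near the 22.4% of all genes that were lower, namely SLC35F2 (-0.93), SLC35B4 (-0.77), SLC35G2 (-0.63) and SLC35C1 (-0.51), of which SLC35F2 and SLC35B4 still passed after rescaling to a common median, where SLC35E1 also came out higher.

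UACA (chr15:70654554-70778903, minus strand) was the most abundant of the 6 genes. It read 107, 126, 107 and 113 TPM at Day 16 and 129, 131, 115 and 126 in RPMI/B27, and these groups overlapped. RPMI_glcM/B27 libraries read 62.3, 63.1, 67.7 and 57.2 TPM and HPLM/B27 libraries 85.1, 73.4, 75.8 and 93.1. These were apart from each other and below all libraries with 11.1 mM glucose. The means were 113 ± 8.80, 125 ± 6.86, 62.6 ± 4.28 and 81.9 ± 9.04 TPM (SD, n = 4 each), and with 1655 to 6549 reads per library UACA had the best counting precision of the 6. Against RPMI/B27 the log2 difference was -0.99 in RPMI_glcM/B27 and -0.61 in HPLM/B27 (SE 0.10 each). HPLM/B27 exceeded RPMI_glcM/B27 by 0.38 (95% interval 0.16 to 0.59). As for CPE, the part of the fibroblast markers in the UACA values was not tested.

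Of 19 apoptosome and PAWR genes only CYCS, cytochrome c, passed for RPMI_glcM/B27 against RPMI/B27. CYCS was higher, with 114 TPM in RPMI/B27, then 160 in RPMI_glcM/B27 and 171 in HPLM/B27 (log2 difference 0.49 between the RPMI media, adjusted p = 0.0387, limma), and it no longer passed after rescaling to a common median. CASP9, the initiator caspase of the apoptosome, read 5.84 TPM in RPMI/B27, then 9.62 in RPMI_glcM/B27 and 10.5 in HPLM/B27, and passed in HPLM/B27 (log2 difference 0.76, adjusted p = 0.0239). Between Day 16 and HPLM/B27, CASP9 (0.60) and CYCS (0.34) rose on the log2 scale, and 7 of the 19 fell, where 3.00% of all genes were higher and 22.4% lower. After rescaling to a common median 3 of the 19 were higher and 4 lower, where 2155 of all 16122 genes were higher and 1919 lower. The 7 that fell before rescaling included APAF1, the scaffold of the apoptosome (-0.91), and BAX, a pore-forming BCL2 relative (-1.02). PAWR itself (-0.80) was also among the 7, and each of these named genes also passed after rescaling.

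INAFM2 (chr15:40323692-40326715, plus strand) was highest in RPMI/B27 and lowest in HPLM/B27. It read 52.0, 50.8, 53.3 and 45.3 TPM at Day 16, 70.1, 75.9, 80.8 and 59.6 in RPMI/B27, 45.2, 50.8, 49.3 and 36.5 in RPMI_glcM/B27, and 33.5, 30.2, 32.9 and 30.9 in HPLM/B27. The RPMI_glcM/B27 libraries overlapped with Day 16, and the other neighbours in the order were apart. The means were 50.4 ± 3.51, 71.6 ± 9.10, 45.5 ± 6.43 and 31.9 ± 1.59 TPM (SD, n = 4 each). The log2 difference from RPMI/B27 was -0.65 in RPMI_glcM/B27 and -1.14 in HPLM/B27 (SE 0.12 each). HPLM/B27 was below RPMI_glcM/B27 by a log2 difference of -0.49 (95% interval -0.75 to -0.23), with no overlap of the libraries. Its relative INAFM1 did not pass between the RPMI media (log2 difference -0.23) or from Day 16 to HPLM/B27 (-0.61).

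The libraries of the media with 5 mM glucose were apart for 4 of the 6 genes, where 7.28% of all genes tested were apart in either direction. CPE, UACA and SLC35F1 were higher in HPLM/B27 and INAFM2 lower, whereas SULT1E1 and KIF1A overlapped. For CPE and UACA, HPLM/B27 lay between RPMI_glcM/B27 and RPMI/B27, and for INAFM2 and SLC35F1 it lay beyond RPMI_glcM/B27. The RPMI_glcM/B27 libraries entered the choice of these genes, so no test is given. An interval that spans 0, as for SULT1E1 and KIF1A, does not show that the media act alike.

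**Figure D3:**
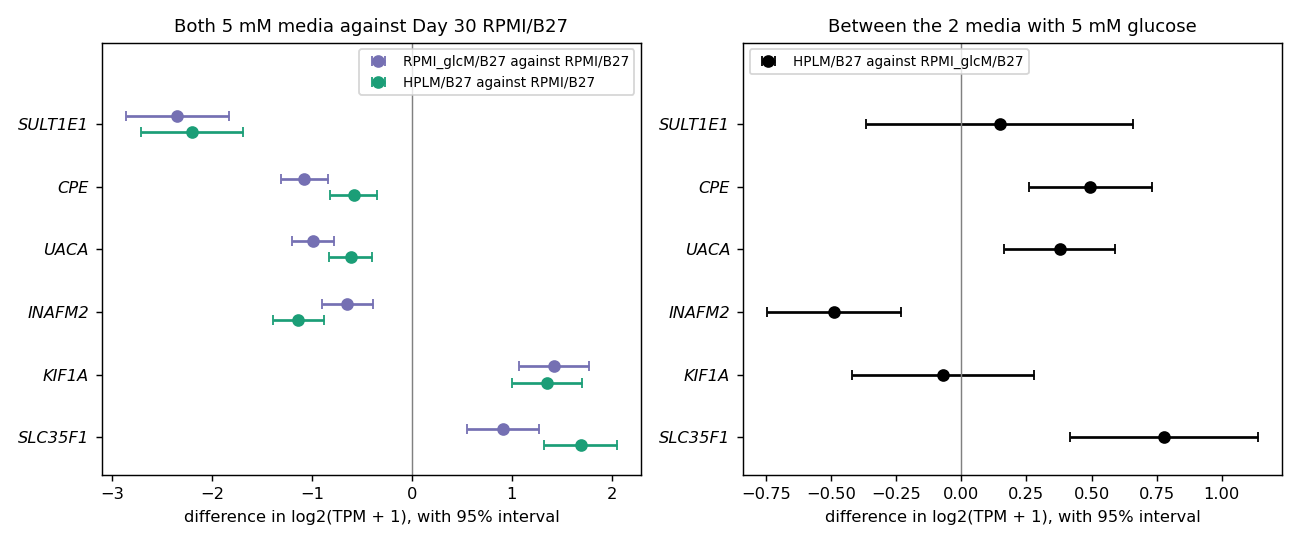
Differences in log2(TPM + 1) between media at Day 30 for the 6 genes, as points with 95% intervals from the fit over all 16 libraries (n = 4 per group). On the left both media with 5 mM glucose are set against RPMI/B27, with all points of one gene on the same side of 0; on the right HPLM/B27 is set against RPMI_glcM/B27, where the intervals of SULT1E1 and KIF1A span 0.

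The stated choice of the genes rested on the difference between the RPMI media. The Day 16 and HPLM/B27 libraries were outside that contrast, and their difference was tested. The test is not free of the choice, because genes and tests were chosen with earlier results of these data known. HPLM/B27 also shares its lower glucose with RPMI_glcM/B27, and Day 16 its higher glucose with RPMI/B27. A pass here is therefore no independent check of the 6 genes. The difference between HPLM/B27 and Day 16 joins the 14 days of culture with the change of medium, which cannot be told apart. All 6 genes passed (limma, adjusted p under 0.05), 2 higher and 4 lower, where 25.4% of all 16122 genes passed, 3.00% higher and 22.4% lower. SLC35F1 rose most, by a log2 change of 2.65 (SE 0.17, adjusted p = 7.25e-08), followed by KIF1A with 1.10 (SE 0.17, adjusted p = 0.000240). CPE fell by 1.09 (SE 0.11, adjusted p = 7.64e-06), SULT1E1 fell by 0.91 (SE 0.24, adjusted p = 0.0125), INAFM2 fell by 0.64 (SE 0.12, adjusted p = 0.00137) and UACA fell by 0.47 (SE 0.10, adjusted p = 0.00364). All 4 HPLM/B27 libraries were on the same side of all 4 Day 16 libraries for each gene, as were 35.9% of all genes. The median of all genes tested was itself at -0.29 in this comparison. Once libraries were rescaled to a common median, 4 of the 6 genes passed, against 25.3% of all genes, and UACA (-0.12, adjusted p = 0.591) and INAFM2 (-0.30, adjusted p = 0.127) did not. RNR2, which takes up much of the TPM scale, ran from 413798 to 439150 TPM at Day 16 and from 461987 to 483359 TPM in HPLM/B27. With the mitochondrial rRNAs and tRNAs and RN7SK left out of the scale 5 of the 6 genes passed, all but UACA. The falls of UACA and INAFM2 from Day 16 therefore depended on the scaling, and those of CPE and SULT1E1 and the rises of SLC35F1 and KIF1A did not.

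The mean of the 3 Day 30 media against Day 16 is independent of any difference among the media, and 4 of the 6 genes passed there, where 31.7% of all genes passed. SLC35F1 rose by a log2 change of 1.83 (SE 0.14, adjusted p = 2.42e-07, limma) and KIF1A by 0.67 (SE 0.13, adjusted p = 0.00159). CPE fell by 1.06 (SE 0.091, adjusted p = 7.67e-07) and UACA fell by 0.39 (SE 0.082, adjusted p = 0.00237), the latter not after rescaling to a common median (-0.07, adjusted p = 0.697). SULT1E1 (-0.23, adjusted p = 0.395) and INAFM2 (-0.10, adjusted p = 0.451) did not pass. For both of these genes the media lay on either side of Day 16. SULT1E1 was at 1.29 above Day 16 in RPMI/B27 and at -1.06 and -0.91 in RPMI_glcM/B27 and HPLM/B27, and INAFM2 was at 0.49, -0.15 and -0.64 in that order. KIF1A was at -0.25 in RPMI/B27 and at 1.17 and 1.10 in the media with 5 mM glucose, so its rise of 0.67 in the mean came from those media. UACA was at 0.14 in RPMI/B27 and at -0.84 and -0.47 in the media with 5 mM glucose.

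**Figure D4:**
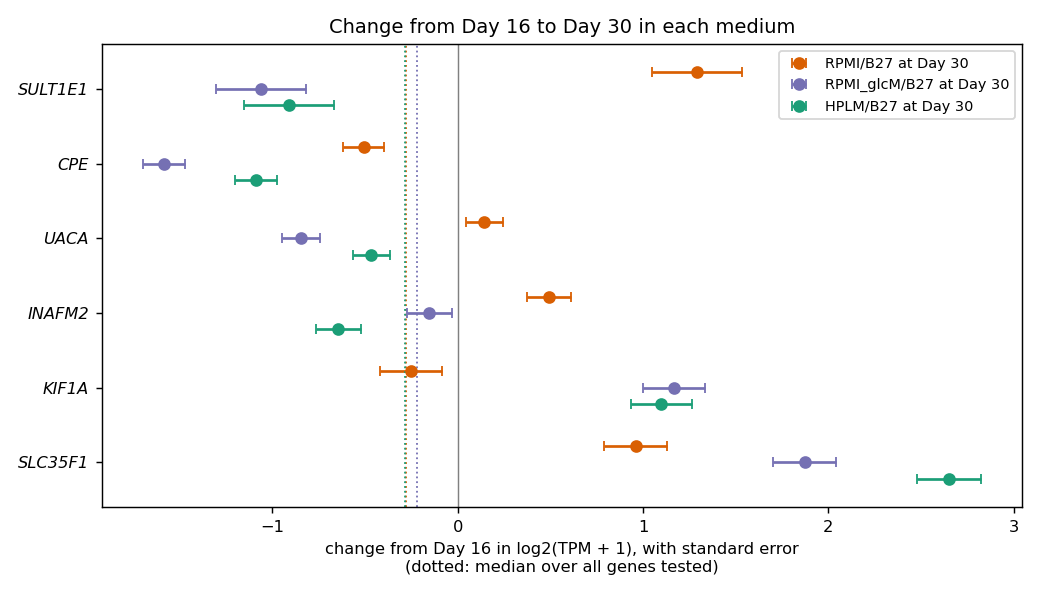
Change from Day 16 to Day 30 in log2(TPM + 1) for each gene and medium, as points with standard errors (n = 4 per group), with the median over all genes tested as a dotted line for each medium at -0.28, -0.22 and -0.29. SLC35F1 was above 0 and CPE below 0 in all 3 media, while SULT1E1, INAFM2, KIF1A and UACA had RPMI/B27 on the other side of 0 from both media with 5 mM glucose.

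Genes with a similar pattern were ranked by Pearson's r of log2(TPM + 1) over the 16 libraries among the 9753 genes that averaged 5 TPM or more, as a description. The points share libraries and group means, so genes that differ between the same groups score high. UACA was most like ARRDC4 (r = 0.954), NUCB2 (0.940) and TXNIP (0.923), the first and last being the known glucose-sensing pair. ARRDC4 went from 17.7 TPM at Day 16 and 22.2 in RPMI/B27 to 1.80 and 2.69 in RPMI_glcM/B27 and HPLM/B27, and TXNIP from 110 and 139 to 4.50 and 4.39 TPM. All 3 genes were lower in both media with 5 mM glucose than in either group with 11.1 mM, UACA over a much narrower range. Between the media with 5 mM glucose UACA and ARRDC4 were higher in HPLM/B27, whereas TXNIP means were close. With each group's mean removed, the deviations of UACA and TXNIP over the 16 libraries still had r = 0.80. TXNIP ranked among the genes most like UACA over these same libraries, deviations included, so this value is a description. TXNIP with SULT1E1 had r = 0.54, and the highest of the 15 pairs among the 6 genes was 0.52 for KIF1A with SLC35F1. In RPMI/B27, for instance, TXNIP read 159, 243, 57.5 and 95.8 TPM in replicates 1 to 4 and UACA was likewise highest in replicate 2 and lowest in replicate 3. In RPMI_glcM/B27 both were lowest in replicate 4, but UACA was highest in replicate 3 and TXNIP in replicate 2.

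SLC35F1 was most like TNNI3, the cardiac troponin I that replaces the fetal form as cardiomyocytes mature (r = 0.975), then LOC105377457 (0.968) and NPY6R (0.959). TNNI3 went from 158 TPM at Day 16 to 410 in RPMI/B27, then 945 in RPMI_glcM/B27 and 1337 in HPLM/B27, as SLC35F1 did in order. KIF1A was most like CKM, the muscle creatine kinase (0.975), MRPL15, a mitochondrial ribosomal protein (0.935), and ESRRA, a nuclear receptor of oxidative metabolism (0.933). CKM read 149 TPM at Day 16, then 116 in RPMI/B27, 303 with 5 mM glucose in RPMI and 341 in HPLM/B27. CPE was most like RGS5 (0.954), a regulator of G protein signalling, FAM114A1 (0.942) and KLHL5 (0.940). The closest genes to SULT1E1 were KLHL4 (0.905), ARID4A (0.891) and C12orf75 (0.883), and those to INAFM2 were BEX4 (0.887), GUCY1A1 (0.881), a subunit of soluble guanylate cyclase, and TIMP1 (0.863).

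**Figure D5:**
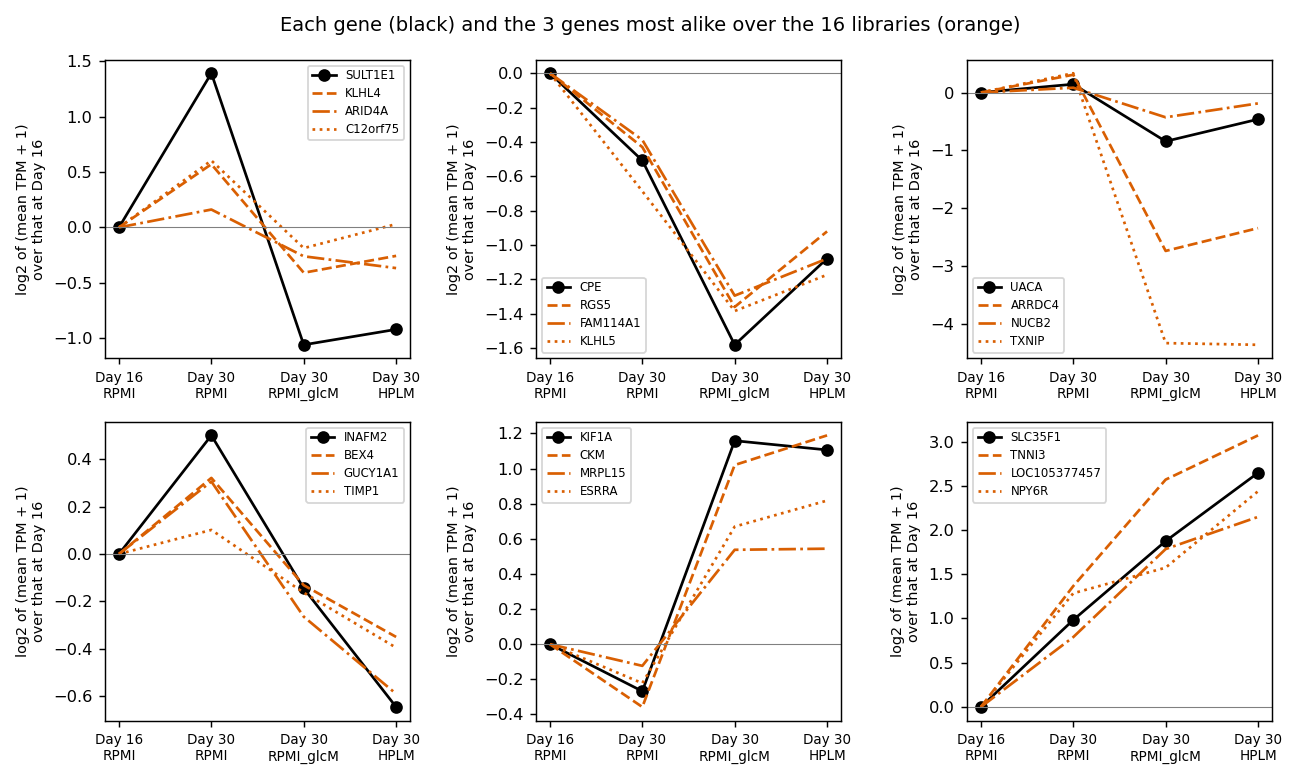
Group means as log2 of (TPM + 1) relative to Day 16 for each of the 6 genes in black and for its 3 most alike genes in orange, one panel per gene with its own vertical axis. TXNIP and ARRDC4, like UACA, are lower with 5 mM glucose than in the other groups, by much more than UACA, and TNNI3 is higher in the same steps as SLC35F1.

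Neighbouring genes were looked up on either side of each gene in RefSeq. CCDC9B, 4737 bases beyond INAFM2, read 14.6 TPM at Day 16, 23.2 in RPMI/B27, then 24.7 in RPMI_glcM/B27 and 25.3 in HPLM/B27, without the INAFM2 difference between the RPMI media (log2 difference 0.10, adjusted p = 0.795, limma). The lncRNA LOC112268152 ends 49 bases before INAFM2 and had 12 reads over the 4 RPMI/B27 libraries, 6 at Day 16 and 1 each in RPMI_glcM/B27 and HPLM/B27, too few for a comparison. The lncRNA LOC107984791, 1579 bases from UACA on the side of lower coordinates, read 4.34 TPM at Day 16, 2.72 in RPMI/B27, then 1.41 in RPMI_glcM/B27 and 1.77 in HPLM/B27. It did not pass between the RPMI media (log2 difference -0.64, adjusted p = 0.221) and was lower in HPLM/B27 than at Day 16 (-0.96, adjusted p = 0.0103). The neighbours of SULT1E1, CPE and KIF1A that had a value were at or below 1.00 TPM in every group mean, so none of them was at a level near that of its neighbour.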

How the data were processed

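Total RNA of 16 libraries was sequenced after a stranded total RNA kit. Per the submitters' processing notes STAR 2.5.3a, featureCounts 2.0.3, R 4.1.3 and the build hg38 were used. The authors deposited TPM values per gene; whether counting used strand is not given in the sources used here. The 6 genes, the related gene lists and the tests were chosen with earlier results of these data known.

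TPM was analysed as log2(TPM + 1) for the 16122 genes that averaged 1 TPM or more, with limma 3.58.1 (trend, all 4 groups in a fit, R 4.3.3) and Benjamini-Hochberg adjustment at 0.05. All 6 genes passed that filter. Whole reads behind the TPM values were recovered for all 31047 genes above 0 (within 0.02 of a whole number) and used for an alternative test with limma-voom. Recovery and fits were tested on simulated data, where both the TPM fit and limma-voom called many unchanged genes once the abundant RNR2 was changed. Differences of the 6 genes were therefore also computed after rescaling. So were the related lists, for RPMI_glcM/B27 against RPMI/B27 and HPLM/B27 against Day 16. Other comparisons of the lists, the neighbouring genes and the correlations are given without rescaling only. Named beside the 6 genes were the 3 most correlated genes of each, TXNIP and ARRDC4, genes of the related lists that passed (at most the 4 of largest change per comparison), neighbours and markers. GAP43 and the genes that passed only after rescaling were named after their values were seen. Alternatives were other pseudocounts, filters, scalings, a replicate term, RNR1 as a covariate and leaving out each library.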

Additional observations from a re-analysis of the deposited data

Results flagged for a closer look

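Genes of the 6 for which all libraries of 1 medium lay above Day 16 and all libraries of another below it were set apart; these differences in the change from Day 16 were not tested, because the Day 30 media chose the genes. For SULT1E1 the change in RPMI/B27 exceeded that in RPMI_glcM/B27 by 2.35 and that in HPLM/B27 by 2.20 on the log2 scale. For INAFM2 the change in RPMI/B27 exceeded that in HPLM/B27 by 1.14. KIF1A went the other way, with RPMI/B27 minus RPMI_glcM/B27 at -1.42 and RPMI/B27 minus HPLM/B27 at -1.35. In none of the 24 sets of 4 libraries, 1 per gene and group, did a library stand apart by Dixon's criterion for 4 samples, the scattered SULT1E1 values in RPMI/B27 included.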

How the results depend on the processing

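For HPLM/B27 against Day 16 between 4 and 6 of the 6 genes passed over 9 alternatives, and 6 without any 1 of the 16 libraries. For the mean of the Day 30 media 3 to 4 passed over 8 alternatives, and 4 without any 1 library. UACA and INAFM2 lost calls. Rescaling to a common median left UACA at -0.12 and -0.07 in these comparisons and INAFM2 at -0.30 in the first. Rescaling without mitochondrial rRNAs, tRNAs and RN7SK left UACA at -0.25 (adjusted p = 0.0895) and -0.20 (adjusted p = 0.0858). The same common median turned the split of all calls for HPLM/B27 against Day 16 from 483 higher and 3605 lower to 2155 and 1919, and for the mean of the media from 543 and 4560 to 2343 and 2273. Calls between the RPMI media went from 219 higher and 135 lower to 772 and 444 in limma-voom, to 1042 higher and 910 lower with the common median, and to 25 higher and 20 lower in a fit of these groups alone. They were 470 and 251 with a replicate block, 321 and 406 with RNR1 as a covariate and 664 and 537 without mitochondrial rRNAs, tRNAs and RN7SK. Without RPMI_glcM/B27 replicates 1, 2, 3 and 4 in turn they were 98 and 82, 83 and 60, 114 and 62, and 153 and 64, and without RPMI/B27 replicates 1 to 4 they were 350 and 91, 324 and 89, 119 and 106, and 138 and 248, the last with more lower than higher calls. Of 447 values without a test under alternatives, 441 moved by less than the spread between libraries. KIF1A in HPLM/B27 against RPMI_glcM/B27, near 0 throughout, ran from -0.21 to 0.01 without single libraries. The other 6 were KIF1A, which has low levels, against RPMI/B27 in RPMI_glcM/B27 (1.82 with a pseudocount of 0.1, 1.84 in limma-voom and 1.61 without mitochondrial rRNAs, tRNAs and RN7SK) and in HPLM/B27 (1.73, 1.76 and 1.60). KIF1A gave no value with a filter of 5 TPM, and a fit of the compared groups alone has no counterpart for the mean of the media. Deviations from the group means had r above 0.1 in 10 of 24 pairs of libraries with the same replicate number (median 0.0586) and in 14 of 72 pairs with different numbers (median -0.0301). Not every pair with the same number exceeded 0.1, so the numbers were not taken as pairs. With a replicate block 6 and 4 genes passed as before, and no call of the 6 genes changed. Low counts limit KIF1A, SLC35F1 and SULT1E1 most.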
